A study of Homo sapiens with 8 samples.

Results

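The genes that drive and restrain the passage from G1 into S phase were examined in the human glioblastoma line U87 after knockdown of RND3, a small GTPase. They were 10 genes: the D cyclins CCND1, CCND2 and CCND3, the E cyclins CCNE1 and CCNE2, the kinases CDK4 and CDK6, the inhibitors CDKN1A (p21) and CDKN1B (p27), and the retinoblastoma gene RB1. On the Agilent arrays they were represented by 12 of 42405 probes, out of 19483 genes that could be named. Cells were reverse transfected with siRNA to RND3 (siRND3) or with a non-silencing control (siControl) and harvested after 24 h or 48 h. No group carried any further allele or agent. The samples were total RNA, with 3 siControl and 3 siRND3 arrays at 24 h and 1 siControl and 1 siRND3 array at 48 h. The sources do not say whether replicates were separate transfections, so p-values measure only the spread between these arrays. With 1 array a group at 48 h, p-values that involve 48 h take their spread from the 24 h arrays alone. Which of the study's RND3 siRNAs each array received is not given in the sources used here.

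In G1, D cyclins bind CDK4 or CDK6 and E cyclins bind CDK2, and these kinases phosphorylate RB1 and its relatives, which then release E2F factors to switch on S phase genes. The CIP/KIP proteins p21 and p27 and the INK4 proteins hold the kinases back, while ubiquitin ligases set how long cyclins and inhibitors last. This pathway is altered in most glioblastomas, commonly by loss of CDKN2A or gain of CDK4 or CDK6. Earlier work reported that RND3 represses cyclin D1. The arrays measure RNA, and say nothing of protein level or kinase activity.

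All 8 arrays lay on 1 slide, with every siRND3 array in 1 row and every siControl array in the other, so position on the slide and treatment cannot be told apart. Between 68.3% and 70.7% of probes were well above background on an array. RND3 itself read 11.88, 11.91 and 11.90 (log2 signal) on the siControl arrays at 24 h and 10.12, 10.18 and 10.42 on the siRND3 arrays, and the 48 h arrays read 11.48 and 9.84. Of 7 markers for a glioblastoma line, the mesenchymal and progenitor genes VIM, NES, CHI3L1, FN1, SPARC and CD44 were well above background on all 8 arrays, whereas neither probe of the astrocyte gene GFAP was on any array. Of these, CD44 fell by 0.58 (log2, adjusted p = 0.00721) at 24 h and by 2.12 at 48 h, and FN1 fell by 0.66 at 48 h. At 24 h NES rose by 0.41 (adjusted p = 0.0472) on its brighter probe, with 0.23 (adjusted p = 0.196) on the other. At 48 h the brighter NES probe read 7.53 in siControl and 9.62 in siRND3 cells, a difference of 2.10. That siControl value differed by -2.07 from the siControl mean at 24 h (9.59). The other NES probe read 9.25 on the same siControl array, and its difference at 48 h was 0.37. The summed linear signal of the 7 lay between 248662 and 263868 in siControl and between 213165 and 242074 in siRND3 cells at 24 h, and was 260674 and 190506 at 48 h. Of 4 markers of other cell types, CDH1 was below background throughout, whereas EPCAM and PTPRC had a probe well above background on all 8 arrays and so did PECAM1. The summed linear signal of the 4 lay between 130.3 and 168.3 in siControl and between 129.8 and 148.4 in siRND3 cells at 24 h. The endothelial marker PECAM1 moved with treatment: its main probe, well above background on 7 arrays, fell by 0.99 (log2, adjusted p = 0.0216) at 24 h, and at 48 h the summed signal was 231.3 in siControl and 115.8 in siRND3 cells. The part of these markers in the results below was not tested.

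At 24 h the RNA of CDK6 and CCNE2 was higher in siRND3 cells, and no member was called lower. CCNE2 was 1.41-fold and 1.63-fold higher by its pair of probes and CDK6 was 1.49-fold higher. CCND1, CCND3, CCNE1, CDK4, CDKN1B and RB1 differed by no more than 0.10 on the log2 scale. CDKN1A was 0.39 lower (log2) without passing the threshold, and CCND2 was too dim to test. Of the 12 probes, 11 passed the filter on dim probes, and 3 of these passed an adjusted p of 0.05, all upwards, where 11.6% of all 28759 probes tested were called (5.27% higher and 6.38% lower). Counted by gene, 2 of 9 members tested were called, against 16.4% of all genes tested (7.16% higher and 9.26% lower), so nothing particular to the family is read from the count. The median difference over the member probes was 0.01, and over all probes tested it was 0.05. In 3 of the 11 probes the siRND3 and siControl arrays at 24 h did not overlap, each with siRND3 above, where 34.4% of all probes did not overlap, 20.3% of all probes having siRND3 above and 14.0% below.

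**Figure D1:**
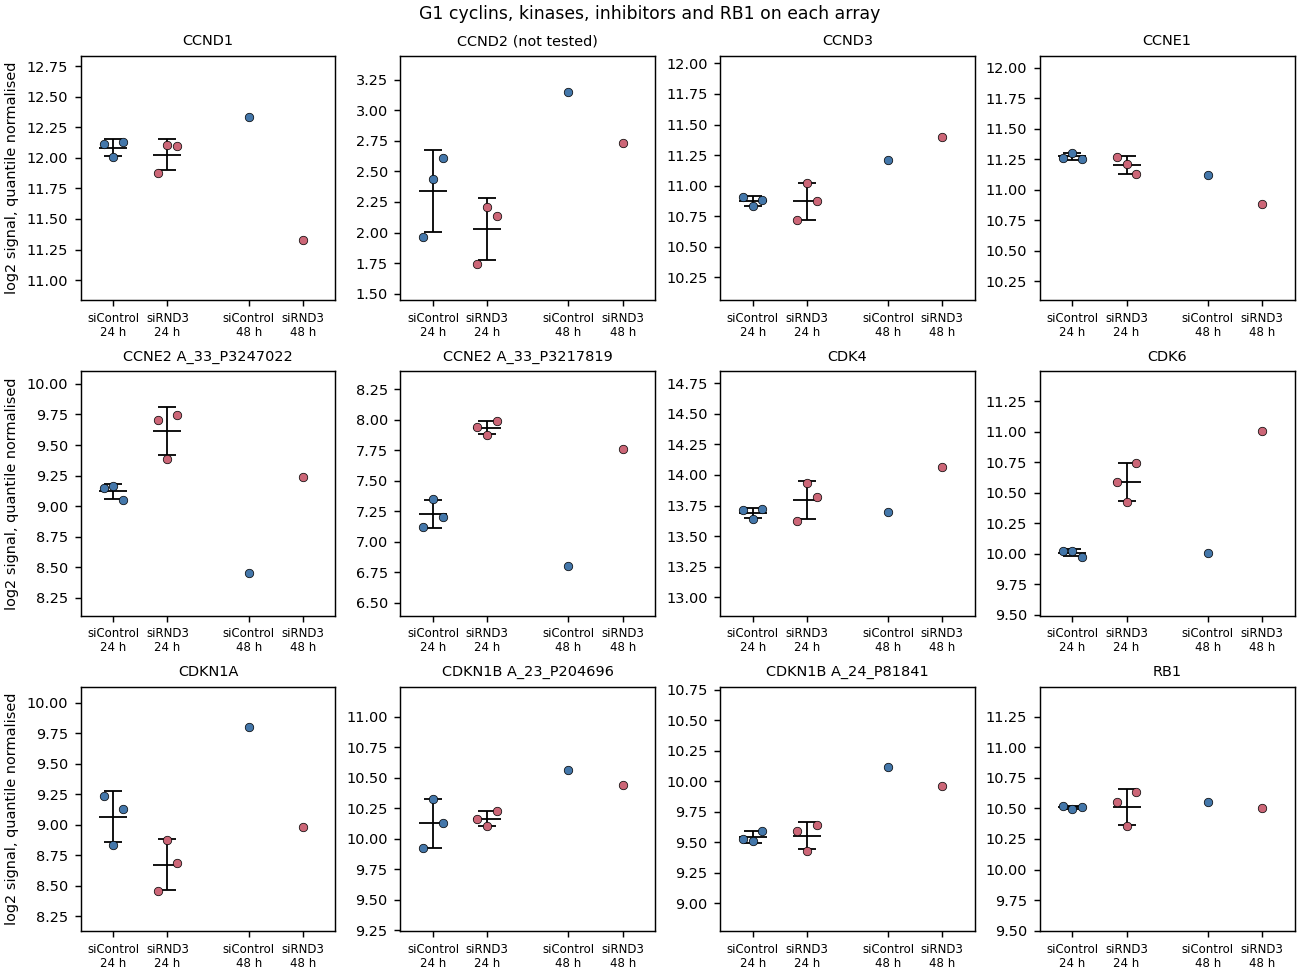
Quantile-normalised log2 signal of the 12 member probes on each array, with siControl in blue and siRND3 in red; bars give the mean and SD of the 3 arrays at 24 h, and each panel spans 2 log2 units. CDK6 and both CCNE2 probes lie above siControl on every siRND3 array, while CCND1 is low on the siRND3 array at 48 h.

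Cyclin D1, the D cyclin that couples growth signals to CDK4 and CDK6, showed no detectable difference at 24 h and was lower at 48 h. Its probe, spotted 10 times on each array, read 12.11, 12.01 and 12.13 in siControl and 11.88, 12.10 and 12.10 in siRND3 cells at 24 h. The groups overlapped, with the first siRND3 array lowest. The difference was -0.06 (SE 0.09, 95% interval -0.28 to 0.16, adjusted p = 0.726), so a change beyond 0.824-fold or 1.12-fold lay outside the interval. At 48 h the siControl array read 12.34 and the siRND3 array 11.33. In the model of all 8 arrays, where each lone array at 48 h is taken to vary as its counterparts at 24 h do, this difference was -1.01 (SE 0.16, 95% interval -1.39 to -0.63, adjusted p = 0.0072), or 49.7% of the siControl signal. The SD over the 10 spots of an array lay between 0.039 and 0.069, which covers technical error within the array only.

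The knockdown effect on CCND1 differed between the times by -0.95 (SE 0.18, 48 h minus 24 h), and the test of this gave an adjusted p of 0.053. It passed with 3 other settings, giving an adjusted p of 0.0172 after normexp background correction, 0.0295 in the authors' log2 values and 0.0423 with a stricter filter. Between the times CCND1 changed by 0.25 in siControl cells (adjusted p = 0.315) and by -0.70 in siRND3 cells (adjusted p = 0.0243). The latter adjusted p ranged from 0.0501 to 0.0555 without siControl replicate 1, siControl replicate 3, siRND3 replicate 2 or siRND3 replicate 3.

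The other D cyclins gave no call. CCND2 was well above background on 1 of 8 arrays, a siControl array at 24 h. Its values lay between 1.74 and 2.21 in siRND3 and between 1.97 and 2.61 in siControl cells at 24 h, and no fold is given for it. CCND3 read 10.91, 10.83 and 10.88 in siControl and 10.72, 11.02 and 10.87 in siRND3 cells at 24 h, with siRND3 replicates on either side of the siControl range. The difference had a 95% interval of 0.853-fold to 1.17-fold (adjusted p = 0.991). CCND3 at 48 h was 11.21 in siControl and 11.40 in siRND3 cells, a difference of 0.19 (adjusted p = 0.53).

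The E cyclins, which activate CDK2 late in G1, gave 1 called gene of 2. CCNE2 rose on both of its probes. The brighter one read 9.15, 9.16 and 9.05 in siControl cells and 9.71, 9.39 and 9.75 in siRND3 cells at 24 h, a difference of 0.49 (SE 0.11, 95% interval 0.22 to 0.77, adjusted p = 0.0389). On the dimmer one, siControl cells read 7.12, 7.35 and 7.20 and siRND3 cells 7.94, 7.88 and 7.99, a difference of 0.71 (SE 0.09, 95% interval 0.50 to 0.91, adjusted p = 0.00454). Neither probe had overlapping groups. At 48 h siControl and siRND3 cells read 8.45 and 9.23 on the brighter probe (difference 0.78, adjusted p = 0.0368) and 6.80 and 7.76 on the dimmer one (difference 0.96, adjusted p = 0.00682).

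The larger gap for CCNE2 at 48 h was not resolved from that at 24 h, with differences between the times of 0.29 and 0.25 (adjusted p = 0.584 and 0.519). The dimmer probe kept its call under every alternative run, although its difference at 48 h was 0.63 after normexp correction. The call at 24 h on the brighter probe was lost without siControl replicate 1, 2 or 3 (adjusted p = 0.105, 0.0968 and 0.131), without siRND3 replicate 1 or 3 (adjusted p = 0.0912 and 0.0907) and with no filter on dim probes (adjusted p = 0.0799). Its call at 48 h was lost without siControl replicate 1, 2 or 3 (adjusted p = 0.0687, 0.0655 and 0.0658) and with no filter (adjusted p = 0.0679). CCNE1 gave values of 11.26, 11.30 and 11.25 in siControl and 11.27, 11.21 and 11.13 in siRND3 cells at 24 h, and the groups overlapped. Its difference was -0.07 (95% interval -0.25 to 0.10, adjusted p = 0.573), and at 48 h it was -0.24 (adjusted p = 0.268). Whether CCNE1 and CCNE2 responded differently was not tested.

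Of the partner kinases, CDK6 rose and CDK4 did not pass the test. CDK6 read 10.02, 10.03 and 9.98 in siControl cells and 10.59, 10.43 and 10.75 in siRND3 cells at 24 h. All 3 siRND3 arrays lay above every siControl array. The difference was 0.58 (SE 0.10, 95% interval 1.27-fold to 1.76-fold, adjusted p = 0.0145), and at 48 h siControl and siRND3 cells read 10.01 and 11.01, a 2.00-fold difference (adjusted p = 0.00912). The difference between the effects at 48 h and 24 h was 0.42 (adjusted p = 0.315). The call at 24 h was lost without siControl replicate 1, 2 or 3 (adjusted p = 0.0552, 0.0516 and 0.0634), with the difference between 0.56 and 0.59 in each case. CDK4 read 13.71, 13.64 and 13.72 in siControl and 13.63, 13.93 and 13.82 in siRND3 cells at 24 h, with overlap. Its difference of 0.10 had a 95% interval of -0.13 to 0.33 (adjusted p = 0.542), and that at 48 h was 0.37 (adjusted p = 0.194).

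CDK6 is shown here by the 250 bases before its most upstream listed start site, as the member kinase called at both times (RefSeq, GRCh38.p14, minus strand, chr7:92836574-92836823). Capitals mark GC boxes, the letters GGGCGG searched on both strands, which were present in 42.6% of 34788 such windows.
CDK6: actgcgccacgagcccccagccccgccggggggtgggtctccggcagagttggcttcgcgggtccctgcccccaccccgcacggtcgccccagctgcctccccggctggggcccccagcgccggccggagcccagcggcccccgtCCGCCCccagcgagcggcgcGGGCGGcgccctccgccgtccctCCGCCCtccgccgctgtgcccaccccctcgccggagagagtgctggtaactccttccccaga
The window was 80.0% G and C and held 3 GC boxes. The other CDK6 window listed, chr7:92833960-92834209, was 67.6% G and C and held 0. No E2F letters (given with the E2F genes below) were found in the printed window, nor in any of the 10 windows listed for 7 members. CCND1, CCND2 and CCNE2 had no listed window. Start sites outside the listing were not searched, for RB1 and the other members alike. RB1 was searched only in chr13:48476200-48476449, which was 36.8% G and C.

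The inhibitors did not pass the test. CDKN1A, the p53 target that encodes p21, read 9.24, 8.83 and 9.13 in siControl and 8.46, 8.87 and 8.69 in siRND3 cells at 24 h. One siRND3 array lay above the lowest siControl array, so the groups overlapped. The difference was -0.39 (SE 0.15, 95% interval -0.75 to -0.04) with an unadjusted p of 0.0351 and an adjusted p of 0.145. At 48 h the pair read 9.80 and 8.99, a difference of -0.82 (adjusted p = 0.0747). It passed in a fit of 8 arrays that had treatment and time as its terms (-0.50, adjusted p = 0.0478) and at 48 h after normexp correction (-0.67, adjusted p = 0.0442). Its siControl level at 48 h stood 0.74 above that at 24 h (adjusted p = 0.114).

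CDKN1B, which encodes p27, read 9.93, 10.33 and 10.13 in siControl and 10.16, 10.11 and 10.23 in siRND3 cells at 24 h on its brighter probe. The probe spotted 10 times gave 9.52, 9.51 and 9.60 in siControl and 9.59, 9.43 and 9.64 in siRND3 cells. Their differences of 0.04 and 0.01 (adjusted p = 0.865 and 0.941) had 95% intervals of 0.85-fold to 1.24-fold and 0.877-fold to 1.16-fold. In siControl cells the 10-spot probe stood 0.57 higher at 48 h than at 24 h (adjusted p = 0.0571). RB1, the brake on E2F that the G1 kinases inactivate, read 10.52, 10.50 and 10.51 in siControl and 10.55, 10.35 and 10.64 in siRND3 cells. Its difference at 24 h was 0.00 (95% interval 0.86-fold to 1.17-fold, adjusted p = 0.988), and at 48 h it was -0.06 (adjusted p = 0.884).

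**Figure D2:**
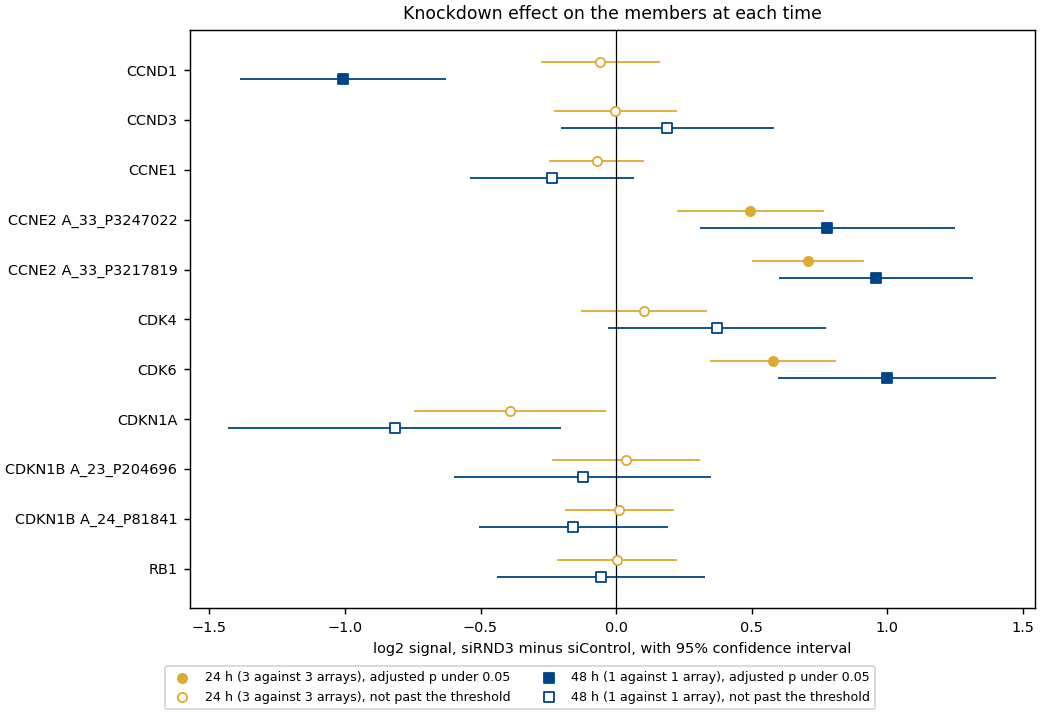
Difference in log2 signal between siRND3 and siControl for the 11 member probes tested, at 24 h (circles) and 48 h (squares), with 95% intervals from limma; filled symbols passed an adjusted p of 0.05. CCNE2 and CDK6 are filled to the right at both times, and CCND1 is filled only at 48 h, at -1.01.

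At 48 h 4 of the 11 member probes passed the threshold, 3 upwards (CCNE2 and CDK6) and CCND1 downwards, where 19.0% of all probes were called (9.77% higher and 9.19% lower). No member passed the test of the effect at 48 h against that at 24 h, where 2.73% of probes did (1.10% higher and 1.63% lower). Among the 11 probes CCND1 had the largest such difference, at -0.95. From 24 h to 48 h in siControl cells no member passed by limma, against 3.56% of all probes (0.824% higher and 2.73% lower). That is by the main fit, and some other settings of limma, given at the end, did call a member. The member differences ran from -0.67 (brighter CCNE2 probe) to 0.74 (CDKN1A). In siRND3 cells 1 of 11 passed, CCND1, downwards, against 9.03% of all probes (2.59% higher and 6.45% lower). These comparisons share arrays.

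Outside the members, the kinase that E cyclins activate was the largest fall of the pathway genes examined. CDK2 read 7.60, 7.65 and 7.64 in siControl and 5.93, 5.86 and 6.02 in siRND3 cells at 24 h, a difference of -1.70 (SE 0.07, adjusted p = 0.000154), or 30.9% of the siControl signal. The arrays at 48 h read 7.51 and 5.23, a difference of -2.28 (adjusted p = 0.000335). The groups were far apart, and the call held under every alternative run. The size did not: after normexp background correction the differences were -1.02 and -1.24 (adjusted p = 5.14e-06 and 3.7e-05). Of the other 4 genes of this list, the phosphatase CDC25A and the CDK-activating kinase parts CDK7, CCNH and MNAT1, none was called at either time. Over all 5 lists, which hold 37 pathway genes, 34 genes had a tested probe. Of these, 4 rose and 3 fell at 24 h, and 5 rose and 8 fell at 48 h, where 16.4% and 27.6% of all genes tested were called (at 48 h 14.3% higher and 13.3% lower). The median over the lists was 0.05 at 24 h and -0.04 at 48 h.

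Among the other inhibitors, INK4 and CIP/KIP genes that act on the same kinases, none was called at 24 h and CDKN2D (p19) fell at 48 h. CDKN2D read 12.48, 12.33 and 12.44 in siControl and 12.26, 12.06 and 12.22 in siRND3 cells at 24 h (-0.23, adjusted p = 0.143), and 12.58 and 11.47 at 48 h (-1.11, adjusted p = 0.0042). The change of its effect between the times was -0.88 (adjusted p = 0.0572). CDKN2A, often deleted in glioma lines, had 1 probe well above background on all 8 arrays (9.16 ± 0.03 in siControl cells at 24 h, SD, n = 3), with a difference of 0.29 at 24 h (adjusted p = 0.0705). The other CDKN2A probe, CDKN2B and CDKN2C were well above background on 1, 0 and 1 of 8 arrays. The CDKN2A probes thus disagreed, the dimmer one reading 2.52, 2.88 and 2.58 in siControl cells at 24 h. Whether the brighter probe reads CDKN2A RNA was not tested. CDKN1C (p57) was well above background on 4 of 8 arrays, and read 2.56, 3.51 and 3.88 in siControl and 2.76, 3.16 and 3.75 in siRND3 cells at 24 h. Its arrays at 48 h read 5.14 and 6.53, above all arrays at 24 h in either treatment, and it was not tested.

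Of the 9 pocket protein, E2F and DP genes, 3 rose and 1 fell at 24 h, where 16.4% of all genes tested were called (7.16% higher and 9.26% lower). E2F2, an activating E2F, read 11.48, 11.46 and 11.46 in siControl and 12.01, 11.85 and 11.86 in siRND3 cells (0.44, adjusted p = 0.0159), and its difference at 48 h was 0.05 (adjusted p = 0.863). The test of E2F2 between the times gave -0.39 (adjusted p = 0.24). RBL1 (p107), a relative of RB1, rose by 0.33 and 0.35 on its pair of probes (adjusted p = 0.0311 and 0.0292), and TFDP1, the DP partner of E2Fs, rose by 0.32 on its brighter probe (adjusted p = 0.0441) and differed by 0.25 on the other (adjusted p = 0.146). E2F5, which works with pocket proteins to repress, fell by 0.42 (adjusted p = 0.0446) and at 48 h by 1.08 (adjusted p = 0.00802). RBL1 and TFDP1 were called again at 48 h, with differences of 0.49 and 0.59 on the brighter probes (adjusted p = 0.0332 and 0.0256), and E2F1 fell by 0.47 at 48 h (adjusted p = 0.0469). At 24 h the difference in E2F1 was -0.18 (adjusted p = 0.164), with the groups not overlapping, and the test between the times gave -0.29 (adjusted p = 0.368). After normexp correction E2F5 differed by -0.25 at 24 h (adjusted p = 0.0472). The calls of E2F2, RBL1, TFDP1 and E2F5 at 24 h sat near the threshold. Of 8 alternative settings that left out no array, TFDP1 lost its call in 3, E2F5 in 2, and E2F2 and each RBL1 probe in 1. Without siControl replicate 1, 2 or 3, E2F2 had adjusted p of 0.0616, 0.0615 and 0.0733, and the others between 0.075 and 0.146. Without a siRND3 replicate, RBL1 was lost on at least 1 probe in each case (0.051 to 0.071), TFDP1 in each case (0.0702 to 0.0935), and E2F5 without replicate 1 (0.0992) or 2 (0.116). At 48 h the brighter RBL1 probe was lost without siControl replicate 1, 2 or 3 (adjusted p = 0.0728, 0.0684 and 0.0786) and TFDP1 without siControl replicate 1 or 3 (adjusted p = 0.0516 and 0.0611).

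E2F2, RBL1 and TFDP1 are shown by the 250 bases before their listed starts, as the called risers of the E2F list (RefSeq, GRCh38.p14; chr1:23531234-23531483 minus, chr20:37095998-37096247 minus and chr13:113584503-113584752 plus). Capitals mark E2F letters, TTTCGCGC, TTTGGCGC, TTTCCCGC or TTTGCCGC on either strand, which 2.78% of 34788 windows held. They can overlap GC boxes, and did so in none of these windows.
E2F2: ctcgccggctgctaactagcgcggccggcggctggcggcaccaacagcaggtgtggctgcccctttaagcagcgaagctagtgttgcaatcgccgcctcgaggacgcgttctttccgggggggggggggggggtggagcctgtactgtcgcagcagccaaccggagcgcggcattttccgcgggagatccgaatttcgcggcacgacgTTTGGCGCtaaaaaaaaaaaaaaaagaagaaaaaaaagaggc
RBL1: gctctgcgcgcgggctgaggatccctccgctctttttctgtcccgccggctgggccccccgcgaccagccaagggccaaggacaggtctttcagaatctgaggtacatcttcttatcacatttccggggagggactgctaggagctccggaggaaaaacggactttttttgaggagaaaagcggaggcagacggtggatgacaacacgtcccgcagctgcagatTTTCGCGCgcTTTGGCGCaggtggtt
TFDP1: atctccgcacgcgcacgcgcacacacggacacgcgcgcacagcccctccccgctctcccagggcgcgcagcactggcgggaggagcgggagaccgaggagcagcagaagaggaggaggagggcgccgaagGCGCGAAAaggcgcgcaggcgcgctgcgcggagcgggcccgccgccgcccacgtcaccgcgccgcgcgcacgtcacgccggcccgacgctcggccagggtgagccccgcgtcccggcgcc
Matches began 42 bases before the start in E2F2, 26 and 16 in RBL1 and 120 in TFDP1. Of 32 pathway genes with a listed window 11 held such letters. That count is by gene over 53 windows, whereas the 2.78% is by single window. Apart from E2F2, RBL1 and TFDP1, the genes that held them were not called at 24 h. A match is a string of letters and not a site of binding.

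Of the 7 ubiquitin ligase genes, SKP2 fell and FBXW7 rose at both times. At 24 h 16.4% of all genes tested were called (7.16% higher and 9.26% lower). SKP2, the F-box protein that targets p27, read 7.98, 8.22 and 8.02 in siControl and 6.77, 6.98 and 6.96 in siRND3 cells at 24 h (-1.17, SE 0.10, adjusted p = 0.00117), and the difference at 48 h was -1.50 (adjusted p = 0.00229). FBXW7, the F-box protein that targets cyclin E, read 8.38, 8.47 and 8.45 in siControl and 9.25, 9.08 and 9.34 in siRND3 cells (0.79, adjusted p = 0.00358), and the difference at 48 h was 1.23 (adjusted p = 0.00314). The groups of neither gene overlapped, and both calls held under every alternative run, with SKP2 at -0.99 at 48 h after normexp correction. AMBRA1, a substrate receptor for D cyclins, rose at 48 h on its brighter probe (0.83), with 0.13 at 24 h (adjusted p = 0.296). The change of its effect between the times was 0.70 on that probe and did not pass the threshold. The dimmer AMBRA1 probe differed by 0.17 at 48 h and by 0.55 at 24 h (adjusted p = 0.205). CKS1B, the SKP2 cofactor, fell at 48 h on its brighter probe (-0.50, adjusted p = 0.0362). The scaffold parts CUL1 and SKP1, and FBXO31, which targets cyclin D1, passed at neither time.

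Of the 11 S phase genes under E2F control, none passed by limma at 24 h, when their median was 0.19. The nearest to the threshold was MCM5, a helicase subunit, at 0.35 (adjusted p = 0.058) on its dimmer probe. At 48 h the genes of this list went both ways, with a median of -0.29. The mitotic kinase CDK1 and the licensing factor CDT1 fell by 0.52 each, whereas the brighter MCM5 probe read 12.56 in siControl and 13.07 in siRND3 cells. MCM3 differed by -0.02 at 24 h (adjusted p = 0.887) and by -0.29 at 48 h (adjusted p = 0.177).

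**Figure D3:**
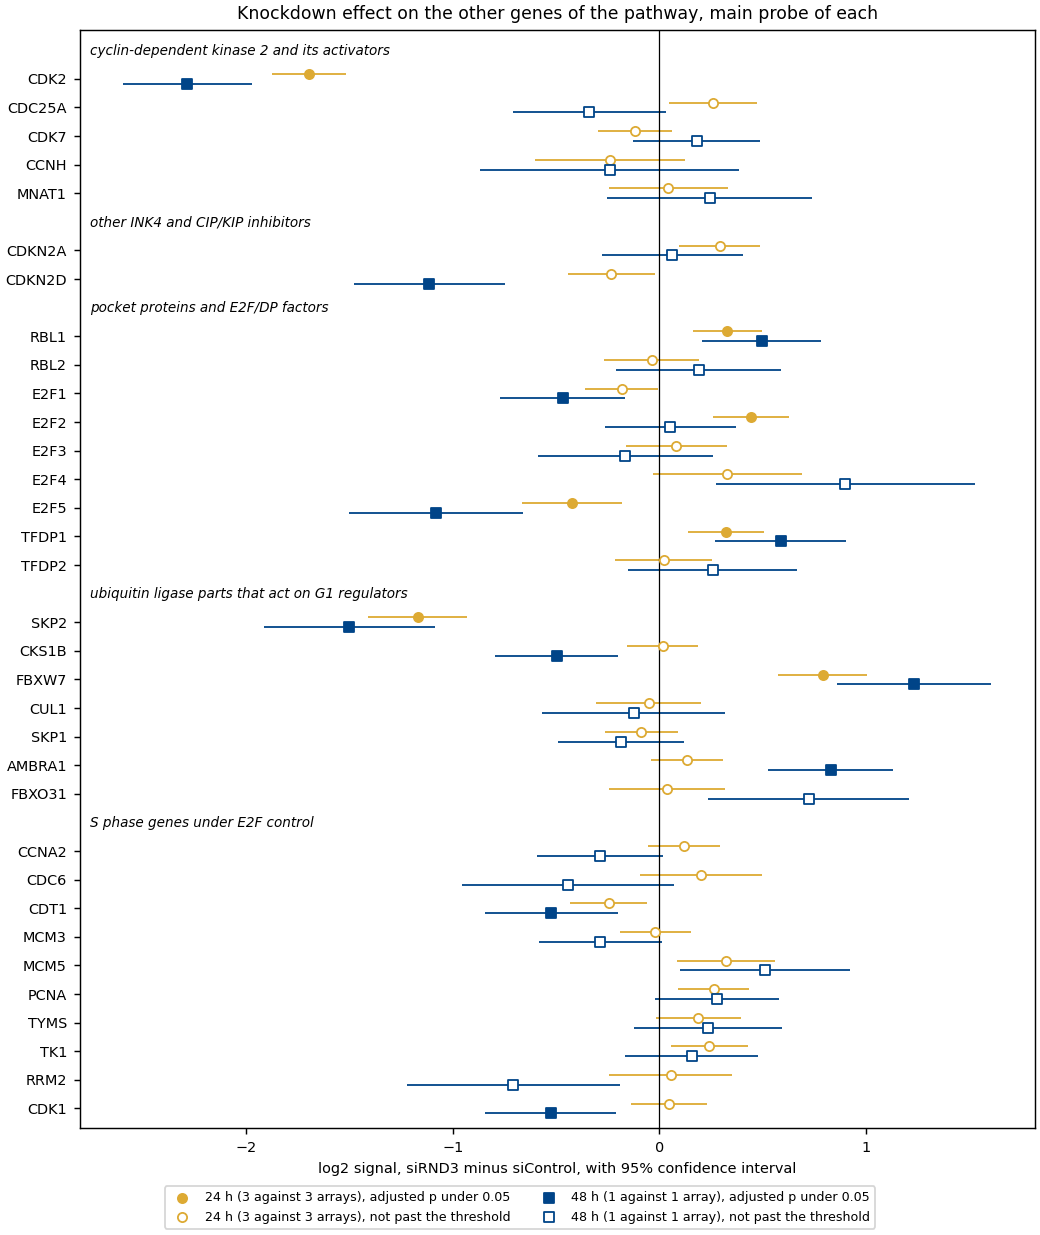
Difference in log2 signal between siRND3 and siControl at 24 h (circles) and 48 h (squares) for the brightest probe of each of 33 tested pathway genes, grouped by list, with 95% intervals from limma and filled symbols where the adjusted p was under 0.05. CDK2 and SKP2 lie far to the left and FBXW7 to the right at both times, and no S phase symbol is filled at 24 h.

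The genes with the pattern most like CCND1 over the 8 arrays were sought among 18120 probes that were well above background on all of them. The 5 with the highest Pearson r were the spindle gene SPAG5 (0.99), RAB3B (0.98), the mitotic regulator FOXM1 (0.98), the replication kinase subunit DBF4 (0.97) and the cytokinesis gene PRC1 (0.97). Each was low on the siRND3 array at 48 h, as CCND1 was, with differences at 48 h of -0.86, -1.10, -0.78, -1.66 and -0.99. Without that array, r over 7 arrays was 0.95, 0.95, 0.95, 0.90 and 0.87. The 8 arrays share a slide and fall into treatment and time groups, so these are descriptions of likeness.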

How the data were processed

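Total RNA of U87 cells was measured on 8 one-colour (Cy3) Agilent arrays, and groups and times were taken from the deposited labels. The members and gene lists were chosen with earlier results of these data known. The authors ran Feature Extraction 10.7.3.1, and the deposited scanner files hold spot intensity already corrected for background within each array. The authors also deposited log2 values, described in their methods as quantile-normalised; these kept the rank order of the spot median signal, so no background had been subtracted from them. The table held 0 columns from other samples.

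The log2 processed intensities were quantile-normalised across the 58717 non-control spots of 8 arrays (62976 spots in all). Spots marked as outliers (0.364% to 0.530% of an array) were then dropped and spots of a probe averaged; no spot was saturated. A probe was tested if well above background (at least 50% of its spots) on all 3 arrays of a group at 24 h. Probes were named through RefSeq accessions of GRCh38.p14 (25422 matched); no array coordinates were used. Probes of a gene were tested separately, the brightest being its main probe, and a gene was called if any probe passed and none passed the other way.

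For 24 h, 6 arrays were fitted without covariates in limma 3.58.1 (R 4.3.3, lmFit then eBayes), two-sided, and p-values were adjusted by Benjamini-Hochberg across the probes tested, at 0.05. Contrasts with 48 h came from a 4-group limma fit. An exact permutation test on 3 against 3 arrays cannot give a p below 0.1 and was not used for calls. Alternatives were scaling to the 75th percentile, normexp correction (offset 50, on spot medians), the authors' log2 values, other filters, SAM at a false discovery rate of 5%, all 8 arrays in 1 fit, a replicate block and leaving out each array at 24 h. The number of arrays limits precision. The rule for named genes took every member, RND3, called pathway genes and those below background, and the 5 genes most like CCND1. Pathway genes past the threshold at 48 h alone, MCM3, MCM5 and the marker PECAM1 were named after their values were seen. One gene of the S phase list, among those that rose at 48 h, is counted in the lists but not named or plotted here.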

Additional observations from a re-analysis of the deposited data

How the results depend on the processing

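Over all settings, 57 counts stayed within 1.5 times the reported value and 29 moved by more, and of the single-probe values 426 kept direction and call, 62 lost the call, 5 gained it and 18 changed sign. The deviations of same-numbered arrays correlated at 0.002, -0.012 and 0.129 for replicates 1, 2 and 3. The highest correlations with a differently numbered array were 0.0002, 0.112 and 0.017. So few arrays cannot decide whether replicate numbers pair them. With the replicate block, the member probes called at 24 h went from 3 to 1 (the dimmer CCNE2 probe; CDK6 had an adjusted p of 0.0520 and the brighter CCNE2 probe 0.0912), pathway probes from 8 to 3, and all probes from 3350 to 1651. Leaving out an array gave 1 to 3 member probes, 3 to 5 pathway probes and 1379 (without siControl replicate 3) to 2574 of all probes. It gave 3 to 4 member probes at 48 h, 0 for the effect between the times, 0 to 1 with time in siControl cells and 0 to 1 in siRND3 cells. After normexp correction 14 pathway probes were called at 24 h. The effect between the times was called for 1 member probe (CCND1), and time in siControl cells for 1 (CDKN1B), with normexp correction, the authors' values and the stricter filter. Time in siRND3 cells called 5 member probes with normexp correction and 2 with the authors' values. The cause was not tested.

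Changes of sign were limited to 5 uncalled probes near 0 at 24 h. CCND3 was 0.027 with 75th percentile scaling, 0.0079 with normexp correction, 0.0068 in the authors' values and 0.045 in the fit of 8 arrays, and ran from -0.077 to 0.073 with an array left out. In the fit of 8 arrays RB1 was -0.012, the brighter CDKN1B probe -0.0024 and the other -0.030. With an array left out RB1 ran from -0.059 to 0.084, the CDKN1B probes from -0.063 to 0.137 and from -0.032 to 0.075, and CCND1 from -0.098 to 0.015.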
